A study of Homo sapiens with 3 samples.

Results

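The NF-kappaB and TNF signalling genes described here are 37 human genes, chosen by name. Transcripts were taken where the array annotation gives a member's symbol as gene name. The choice was made with earlier results of these data known, so counts of members describe these arrays and are not independent support for any result. All 37 were found, with 72 of 45033 transcripts, among 23595 genes in all. They were measured in HaCaT cells, an established human keratinocyte line that became immortal in culture, on single-colour NimbleGen expression arrays. There were 3 arrays, 1 for each group. The control cells received no retinoid, the ATRA cells received 1 µM all-trans retinoic acid (ATRA, the active form of vitamin A), and the ATRA+NIC cells received ATRA and nicotinamide (NIC, the amide of vitamin B3), and the series text gives 36 h for the incubation. All groups share the cell line and its serum-containing medium. How much nicotinamide was used is not stated in the labels, and no array holds cells given nicotinamide without ATRA.

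NF-kappaB is a family of dimeric transcription factors built from the Rel proteins. In resting cells IkappaB proteins hold the dimers in the cytoplasm, and signals from TNF receptors, Toll-like receptors and interleukin 1 receptors activate the IkappaB kinase complex, which marks IkappaB for destruction. The freed dimers switch on genes of inflammation, adhesion and cell survival, and also the genes of their own inhibitors, so the pathway limits itself. In epidermis the pathway is known for its part in cytokine production, in survival of keratinocytes under TNF and in inflammatory skin disease.

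Values are log2 intensities, averaged over the transcripts of a gene to give its level, and a difference is the level on 1 array minus that on another. With 1 array per group there is no error between cultures and no test is possible, so each difference describes these arrays, and a fixed size of 2-fold (1 on the log2 scale) was used to count them. The only scatter that could be measured was technical. Transcripts belonging to 1 gene scattered around its mean difference with a pooled SD of 0.31 for ATRA against control, 0.30 for ATRA+NIC against ATRA and 0.24 for ATRA+NIC against control. This was taken over 7074 genes with more than 1 transcript that passed the filter given below. Among all 23 members with more than 1 transcript, including those below that filter, this SD was 0.37, 0.36 and 0.43. Below the filter, NFKBIE alone had an SD of 1.12, 0.32 and 0.81 and CD40 of 0.23, 1.20 and 0.99. The sets are unlike, so these values do not show whether members scattered more than other genes. Of the members, 23 had 2 to 4 transcripts and 14 had 1. The median transcript intensity was 297.9 to 302.3 on the 3 arrays, and the random probes lay at 18.4 to 19.6. A gene was counted when its level reached the median of all genes and arrays, 7.95, on at least 1 array. This held for 12467 genes and for 32 members. Of these, TRAF1 and CYLD passed through the ATRA array alone. NFKBIE, TNFRSF1B, TNFRSF9, CD40 and TLR2 stayed below it on every array.

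Keratinocyte markers were present, with all 11 listed genes above the filter on at least 1 array and a median level of 13.29 in control, 12.86 in ATRA and 12.67 in ATRA+NIC. With ATRA 5 of the 11 were higher and 6 lower than in control, with a median difference of −0.06. With ATRA+NIC 8 were lower and 3 higher than with ATRA (median −0.09). Against control, ATRA+NIC also had 8 lower and 3 higher (median −0.43). Summed intensities of these markers were 141829 in control, 117681 in ATRA and 100724 in ATRA+NIC. The basal keratin gene KRT5 was at 14.86, 13.29 and 13.29 in that order, and KRT17, a keratin of wounded epidermis, at 7.62, 8.63 and 7.97. Leukocyte markers were mostly dim but moved between the arrays in the same sense as many members. Of 14 markers, 12 were higher on the ATRA array than on the control array and 12 were lower on the ATRA+NIC array than on the ATRA array. Their median level was 6.21 in control, 7.19 in ATRA and 5.13 in ATRA+NIC, and their summed intensities were 2971, 5604 and 3249. Under an intensity of 50 lay 7, 3 and 8 of the 14. At or above the filter lay 2, 5 and 2 of them. PTPRC, the pan-leukocyte gene of CD45, was at 5.07, 7.24 and 4.21, under the filter on all arrays. The B cell gene MS4A1 was not higher with ATRA, at 4.36, 4.26 and 4.70. CD79A, another B cell gene, was at 6.90, 8.25 and 6.79, and the leukocyte marker CD3E at 7.97, 8.97 and 6.14. CD68, a macrophage gene that other cells also express, had the highest level of the list, at 10.79, 11.73 and 11.19. Several members, among them LTB, CD83, TNFRSF9 and TNF, are also known from leukocytes, and the part of these markers in the results on the members was not tested.

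Promoters of members are shown because NF-kappaB is known to bind a decamer, the kappaB consensus, in promoters of its own regulators. RefSeq promoter sequences of build GRCh38.p14, 250 bases before the gene's start, were matched by symbol for 32 members. In them both strands were searched for the kappaB consensus, counting overlapping matches. The consensus was taken as GGGRNNYYCC, with R for A or G, Y for C or T and N for any base. It occurred in 10 of these 32 promoters, and in 9.96% of 35116 promoters of the same length in the table. Among the 9 members that were at least 2-fold higher on the ATRA array, 8 had a sequence. Of these, 5 held a match, in NFKBIZ, MAP3K8, BIRC3, TNFAIP3 and LTB, while NFKB2, ICAM1 and CD83 held none. Among the other 24 members with a sequence, 5 held a match, in NFKB1, REL, NFKBIA, TRAF3 and TNFRSF9. The AP-1 motif TGANTCA occurred in 1 member, TNFRSF9, and in 6.57% of all promoters. A match is a description of the letters in this window. The members were chosen as genes of this pathway, and 1 promoter was taken per member. Whether a match goes with a difference between the arrays was not tested. The 5 promoters from members at least 2-fold higher are printed first, followed by those of NFKBIA and NFKB1, which held a match and stayed under 2-fold. Each runs 5′ to 3′ towards the gene's start, with kappaB matches in capitals.
NFKBIZ (chr3:101827740-101827989, plus strand): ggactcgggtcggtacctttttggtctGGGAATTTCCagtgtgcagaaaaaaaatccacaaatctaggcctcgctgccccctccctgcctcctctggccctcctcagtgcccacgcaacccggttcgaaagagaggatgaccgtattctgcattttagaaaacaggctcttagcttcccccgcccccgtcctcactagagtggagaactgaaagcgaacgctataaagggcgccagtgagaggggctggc
MAP3K8 (chr10:30433771-30434020, plus strand): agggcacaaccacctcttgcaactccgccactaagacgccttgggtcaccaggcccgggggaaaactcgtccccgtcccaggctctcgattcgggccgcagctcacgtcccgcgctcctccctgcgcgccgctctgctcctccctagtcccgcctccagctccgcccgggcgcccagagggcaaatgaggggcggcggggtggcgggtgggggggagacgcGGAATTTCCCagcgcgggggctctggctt
BIRC3 (chr11:102317234-102317483, plus strand): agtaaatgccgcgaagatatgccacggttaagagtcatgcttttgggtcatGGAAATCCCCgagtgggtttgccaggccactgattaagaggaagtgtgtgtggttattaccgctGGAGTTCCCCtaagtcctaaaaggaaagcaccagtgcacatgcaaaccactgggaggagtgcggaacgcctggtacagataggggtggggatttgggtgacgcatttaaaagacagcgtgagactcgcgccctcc
TNFAIP3 (chr6:137867009-137867258, plus strand): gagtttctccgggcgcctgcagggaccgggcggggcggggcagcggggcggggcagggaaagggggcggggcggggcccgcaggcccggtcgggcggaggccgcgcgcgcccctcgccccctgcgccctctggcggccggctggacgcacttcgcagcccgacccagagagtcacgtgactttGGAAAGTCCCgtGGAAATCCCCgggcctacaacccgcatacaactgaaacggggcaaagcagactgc
LTB (chr6:31582426-31582675, minus strand): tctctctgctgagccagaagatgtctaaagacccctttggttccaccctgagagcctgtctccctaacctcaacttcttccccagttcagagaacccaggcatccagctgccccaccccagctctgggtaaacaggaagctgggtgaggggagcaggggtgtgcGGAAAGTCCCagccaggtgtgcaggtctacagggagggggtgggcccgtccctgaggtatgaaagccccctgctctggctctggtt
NFKBIA (chr14:35404750-35404999, minus strand): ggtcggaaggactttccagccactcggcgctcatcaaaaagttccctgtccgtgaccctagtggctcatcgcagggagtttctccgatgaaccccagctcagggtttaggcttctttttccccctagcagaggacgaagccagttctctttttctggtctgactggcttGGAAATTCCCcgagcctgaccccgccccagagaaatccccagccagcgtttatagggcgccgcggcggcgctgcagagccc
NFKB1 (chr4:102501109-102501358, plus strand): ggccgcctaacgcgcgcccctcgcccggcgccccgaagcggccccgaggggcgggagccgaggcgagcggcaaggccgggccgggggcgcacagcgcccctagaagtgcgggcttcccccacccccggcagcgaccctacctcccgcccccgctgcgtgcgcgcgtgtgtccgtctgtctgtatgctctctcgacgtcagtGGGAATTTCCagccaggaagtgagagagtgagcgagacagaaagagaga
The match began 223 bases before the start in NFKBIZ, 29 in MAP3K8, 86 in LTB, 81 in NFKBIA and 49 in NFKB1. BIRC3 held 2 matches, at 199 and 135 bases, and TNFAIP3 held 2 close together, at 67 and 55 bases.

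The comparison of ATRA with control asks which members differed in keratinocytes given the retinoid. Most were higher on the ATRA array, and the ones with the greatest differences were the survival gene BIRC3, the adhesion gene ICAM1, the kinase gene MAP3K8, the nuclear IkappaB gene NFKBIZ and the feedback gene TNFAIP3. Of the 32 members passing the filter, 29 were higher and 3 lower, while 45.6% of all 12467 genes were higher. Among the 29, TRAF1 and CYLD passed the filter through the ATRA array alone, and neither reached 2-fold. At least 2-fold higher were 9 of the 32, against a background of 3.83% of all genes. At least 2-fold lower were 0, against 2.06%. The members were not chosen blind to these data, so these counts and those of the comparisons below describe the arrays only. The members' median difference was 0.56 and that of all genes −0.04. Over all 37 members without the filter, 10 were at least 2-fold higher, against 4.23% of 23595 genes, and 0 lower, against 3.22%, and the median was 0.55.

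**Figure D1:**
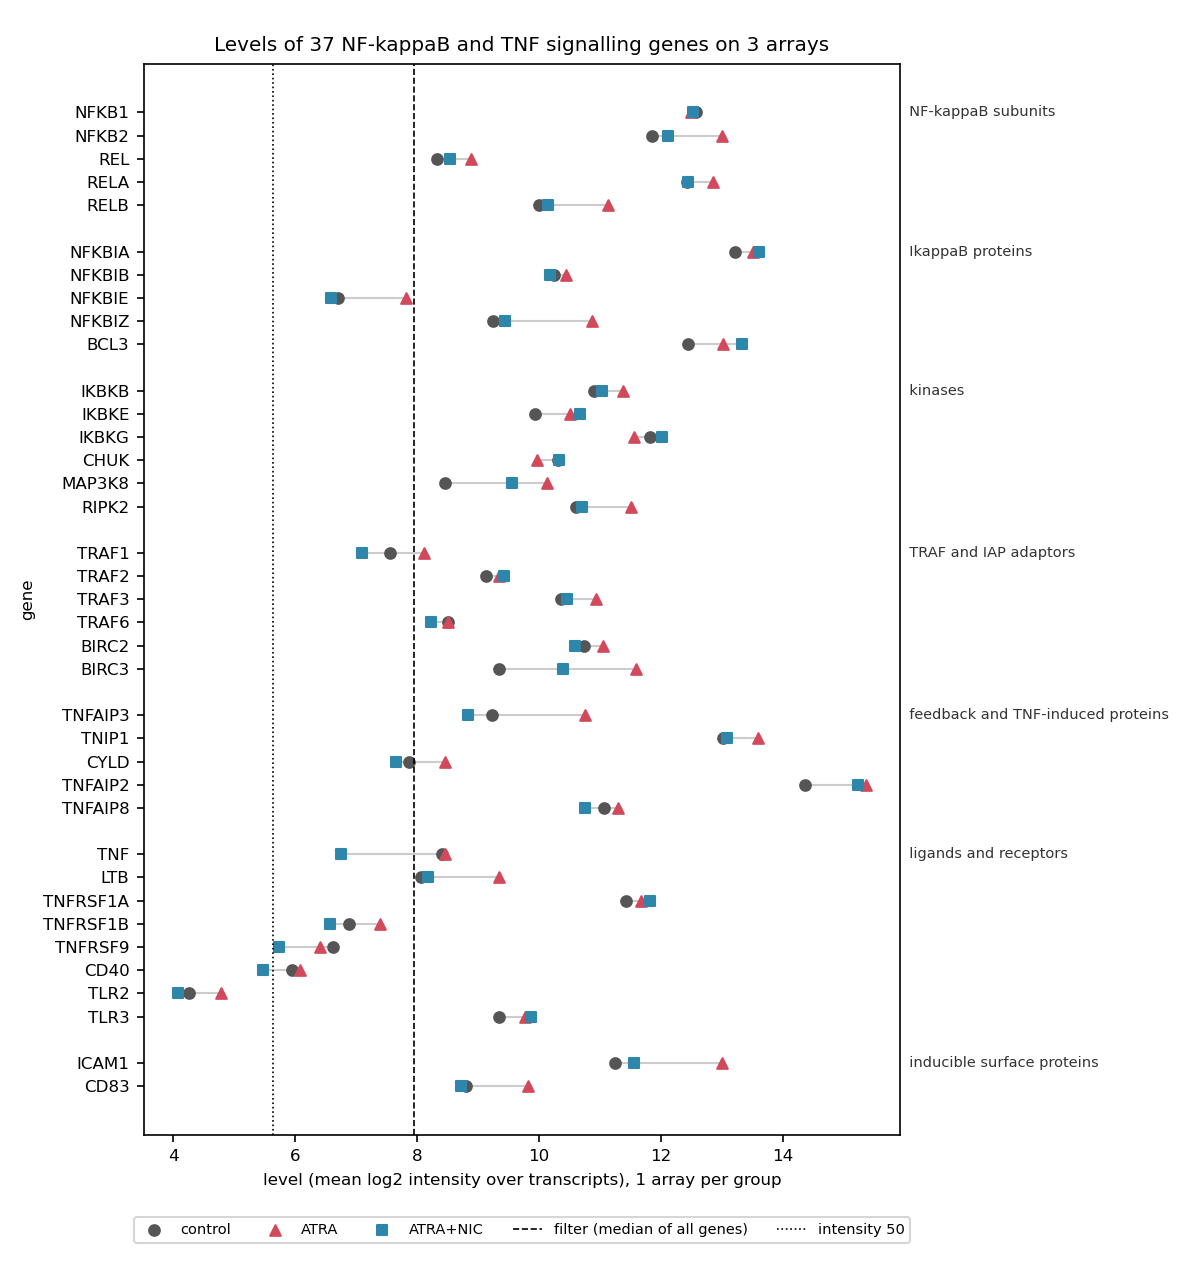
Level of each of the 37 genes (rows, grouped by role) with no agent, ATRA or ATRA+NIC, as mean log2 intensity over the gene's transcripts, 1 array per group and no error bars. The dashed line is the filter at 7.95 and the dotted line an intensity of 50. For 27 of the 37 genes the ATRA array holds the highest of the 3 levels.

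Among the Rel proteins, the genes of the alternative pathway stood higher than those of the classical one in their difference. NFKB2, whose product is processed to the partner of RELB, had levels of 11.85 in control, 13.00 in ATRA and 12.12 in ATRA+NIC, and was 2.22-fold higher with ATRA, with 1.15 in both transcripts. RELB, read by 1 transcript, was at 10.01, 11.13 and 10.14, a 2.17-fold difference. For both genes the ATRA array was high and the other arrays lay close together. RELA, which encodes the main activating subunit of the classical dimer, was at 12.43, 12.85 and 12.44, and its 4 transcripts differed by 0.17 to 0.91 between ATRA and control. NFKB1, which encodes the other classical subunit, had nearly equal levels of 12.57, 12.50 and 12.52, and its transcripts differed in sign. REL, a subunit best known from lymphocytes, was at 8.32, 8.88 and 8.54.

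The IkappaB genes differed unequally. NFKBIZ encodes a nuclear IkappaB protein that acts as a co-activator of inflammatory genes in keratinocytes. Its levels were 9.25 in control, 10.86 in ATRA and 9.44 in ATRA+NIC, 3.06-fold higher with ATRA, with 1.91 and 1.31 in its transcripts. NFKBIE, a cytoplasmic inhibitor, was at 6.71, 7.82 and 6.58, just under the filter, a 2.16-fold difference. That mean hides a split: the transcripts NM_004556 and U91616 differed by 1.86 and 1.66, and AK130739, under an intensity of 50 on all arrays, by −0.18. NFKBIA, the classical feedback inhibitor, differed by only 0.29, from 13.21 to 13.50, and its promoter, printed above, holds a match. NFKBIB, another cytoplasmic inhibitor, was at 10.25 and 10.44. BCL3, a nuclear co-activator that binds NF-kappaB dimers, was higher by 0.58, from 12.44 to 13.02.

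Of the kinases, MAP3K8 stood apart in size. It encodes a kinase that links TNF and Toll-like receptor signals to the ERK pathway and is held inactive by the precursor made from NFKB1. Its levels were 8.46, 10.12 and 9.56, and the ATRA array was 3.17-fold higher than control, with transcripts at 1.14, 1.82 and 2.04. RIPK2, the kinase of the NOD receptors, was at 10.60, 11.51 and 10.70, a 1.88-fold difference. The kinase complex itself went both ways. IKBKB, its main catalytic subunit in the classical pathway, was higher by 0.47 and IKBKE, a related kinase, by 0.58. CHUK, the catalytic subunit of the alternative pathway, was lower by a difference of −0.36 in the mean of its 2 transcripts, and IKBKG, the scaffold subunit, by −0.25. These last differences are of the size of the scatter between transcripts.

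BIRC3 had the greatest difference of all members. It encodes an inhibitor of apoptosis protein that attaches ubiquitin chains in the TNF receptor complex and is a known NF-kappaB target. Levels of its single transcript were 9.35 in control, 11.59 in ATRA and 10.39 in ATRA+NIC. The ATRA array was 4.73-fold higher than control, rank 82 of 12467 genes from the highest, and ATRA+NIC lay between the others. Its neighbour BIRC2, which encodes a closely related protein, differed by 0.30. The adaptor genes TRAF1, TRAF2, TRAF3 and TRAF6, which carry receptor signals to the kinases, were higher by 0.55, 0.21, 0.58 and 0.01, and all transcripts of each were higher.

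Feedback and TNF-induced genes were all higher, 5 of 5, and 1 of them reached 2-fold. TNFAIP3, which encodes the ubiquitin-editing enzyme that shuts down TNF signalling, was at 9.23, 10.75 and 8.83. It was 2.88-fold higher with ATRA, in both transcripts (1.54 and 1.51). TNIP1, the binding partner of that enzyme, was at 13.02, 13.59 and 13.09, higher in all 4 transcripts. The deubiquitinase gene CYLD was at 7.87, 8.45 and 7.66, with its transcripts at 1.01 and 0.17. TNFAIP2, a TNF-induced gene that retinoic acid is also known to induce in leukaemia cells, was at 14.36, 15.35 and 15.23, and its 1.99-fold difference fell just short of the count, while CD83, at 2.03-fold, was just inside it. TNFAIP8, a gene of cell survival, differed by 0.23.

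Ligands and receptors were mostly dim or little different. LTB, the gene of lymphotoxin beta, a TNF-family ligand, was at 8.06, 9.35 and 8.18, and was 2.45-fold higher with ATRA, by 1.29 in each of its transcripts. TNF itself, read by 1 transcript, was at 8.41 in control and 8.46 in ATRA. TNFRSF1A, the TNF receptor gene of most cells, differed by 0.25, and TLR3, the receptor for double-stranded RNA, by 0.42. Of the receptors under the filter, TNFRSF1B, the second TNF receptor, differed by 0.51 and TNFRSF9, a co-stimulatory receptor, by −0.22. CD40 and TLR2 lay close to background, at 5.95 and 6.08 and at 4.27 and 4.79, and both transcripts of TLR2 were under an intensity of 50 on all arrays.

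ICAM1 and CD83 are inducible surface proteins. ICAM1 encodes the adhesion molecule that leukocyte integrins bind on inflamed keratinocytes, and it is also a known retinoid-responsive gene. It was at 11.24, 13.01 and 11.55, 3.40-fold higher with ATRA, in its only transcript. CD83, a surface protein best known from mature dendritic cells, was at 8.80, 9.82 and 8.71, and its 3 transcripts were higher by 0.92 to 1.13. In the hg18 annotation of the array, BIRC3 lies on chromosome 11 at 101693403 to 101713675, ICAM1 on chromosome 19 at 10242778 to 10258291, MAP3K8 on chromosome 10 at 30762863 to 30790767, NFKBIZ on chromosome 3 at 103029546 to 103062556 and TNFAIP3 on chromosome 6 at 138230273 to 138246142. TNF and LTB are neighbours on chromosome 6, at 31651328 to 31654091 and at 31656313 to 31658181.

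**Figure D2:**
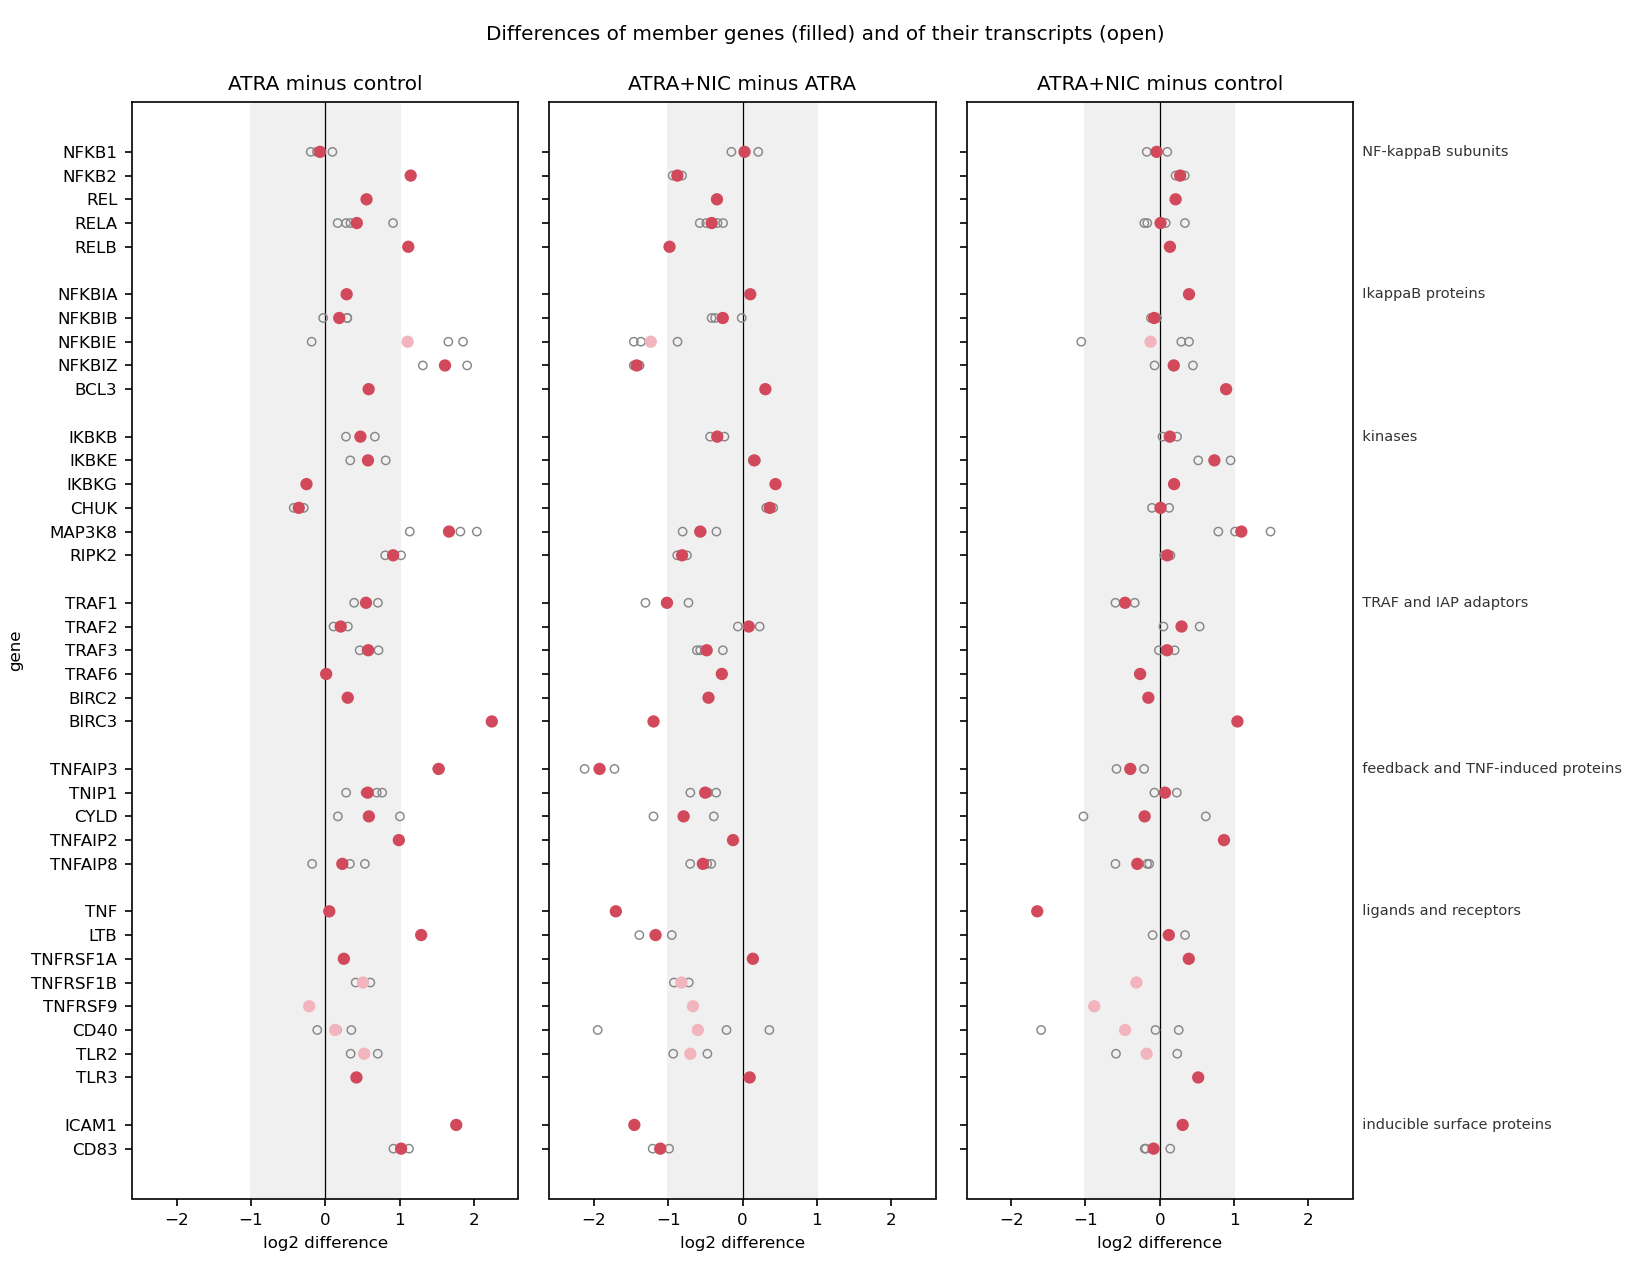
Log2 differences of the 37 genes in the 3 comparisons, 1 panel each. Filled points are genes (pale where the gene stayed below the filter), open points are the gene's transcripts, and the grey band marks differences under 2-fold. BIRC3 lies farthest right at 2.24 in the ATRA minus control panel, and TNFAIP3 farthest left at −1.92 in the ATRA+NIC minus ATRA panel.

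Setting ATRA+NIC against ATRA asks which members differed when nicotinamide was added to the retinoid. Most were lower on the ATRA+NIC array, with TNFAIP3 and TNF lowest, followed by ICAM1, NFKBIZ, BIRC3, LTB, CD83 and TRAF1. Both comparisons use the ATRA array, so a gene that is high there by chance is lower here by construction. Of the 32 members, 23 were lower and 9 higher, while 44.2% of all 12467 genes were lower. At least 2-fold lower were 8 of the 32, against a background of 3.74%, and 0 were at least 2-fold higher, against 1.35%. TRAF1, counted among the 8, and CYLD, counted among the 23, passed the filter through the ATRA array alone. Both are highest there, so the filter itself favoured their being lower here. The members' median difference was −0.47 and that of all genes 0.05. Over all 37 members, 9 were at least 2-fold lower, against 4.12% of 23595 genes, and 0 higher, against 3.09%.

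TNFAIP3 had the lowest difference of the members. Its level of 8.83 with ATRA+NIC stood 3.79-fold under the 10.75 of the ATRA array, with transcripts at −2.12 and −1.72. TNF was next, at 6.76 on the ATRA+NIC array against 8.46 on the ATRA array, 3.26-fold lower. An intensity of 108.2 remained there, above the random probes. The control and ATRA levels of TNF were nearly equal and the ATRA+NIC array alone was low. The value rests on a single transcript.

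ICAM1 was 2.74-fold lower with ATRA+NIC than with ATRA, NFKBIZ 2.68-fold, BIRC3 2.29-fold, LTB 2.25-fold and CD83 2.15-fold. TRAF1, a TNF-induced adaptor, was at 7.57 in control, 8.11 in ATRA and 7.10 in ATRA+NIC, 2.02-fold lower with ATRA+NIC than with ATRA, in both transcripts (−0.73 and −1.31). It passed the filter through the ATRA array alone, where it is highest. With each array centred on its own median TRAF1 dropped out of the count. NFKBIE, under the filter, was 2.35-fold lower, or 1.92-fold with values under an intensity of 50 set to 50. RELB at −0.98 and NFKB2 at −0.88 came close to 2-fold, as did RIPK2 at −0.81 and CYLD at −0.79. MAP3K8 differed less, by −0.57, so its level stayed nearer to that of the ATRA array.

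The 9 members that were higher with ATRA+NIC than with ATRA differed by little. They were IKBKG (0.44), CHUK (0.37), BCL3 (0.31), IKBKE (0.16), TNFRSF1A (0.14), NFKBIA (0.10), TLR3 (0.10), TRAF2 (0.08) and NFKB1 (0.03). Both subunit genes CHUK and IKBKG, which were the lower ones with ATRA, were among them. TNFAIP2 was also nearly equal on these arrays, at −0.13. TNFRSF1A, TLR3, BCL3, NFKBIA, IKBKE and TRAF2 had levels that were lowest in control and highest in ATRA+NIC.

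The third comparison, ATRA+NIC with control, asks what differed in cells given both agents, and it shares an array with each of the others. Here the members spread on both sides of 0, with more above it. Of the 32, 22 were higher and 10 lower, while 48.8% of all 12467 genes were higher. The members' median was 0.13, against −0.01 for all genes. Over all 37 members, 22 were higher and 15 lower, while 50.4% of 23595 genes were higher. At least 2-fold higher were MAP3K8 (2.14-fold) and BIRC3 (2.06-fold), 2 of 32 against a background of 1.03%, and at least 2-fold lower was TNF (3.14-fold), 1 of 32 against 0.971%. Without the filter these members remained the only ones past 2-fold, 2 of 37 against 2.32% and 1 of 37 against 2.08%. With an offset of 100 added before log2 neither MAP3K8 nor BIRC3 reached 2-fold. BCL3 at 1.86-fold, TNFAIP2 at 1.82-fold and IKBKE at 1.66-fold higher were the next. NFKB2, RELB, NFKBIZ, LTB, ICAM1 and CD83, all at least 2-fold higher with ATRA alone, differed from control by 0.27, 0.14, 0.19, 0.12, 0.31 and −0.08 with ATRA+NIC. TNFAIP3 differed by −0.40 and TRAF1 by −0.47.

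**Figure D3:**
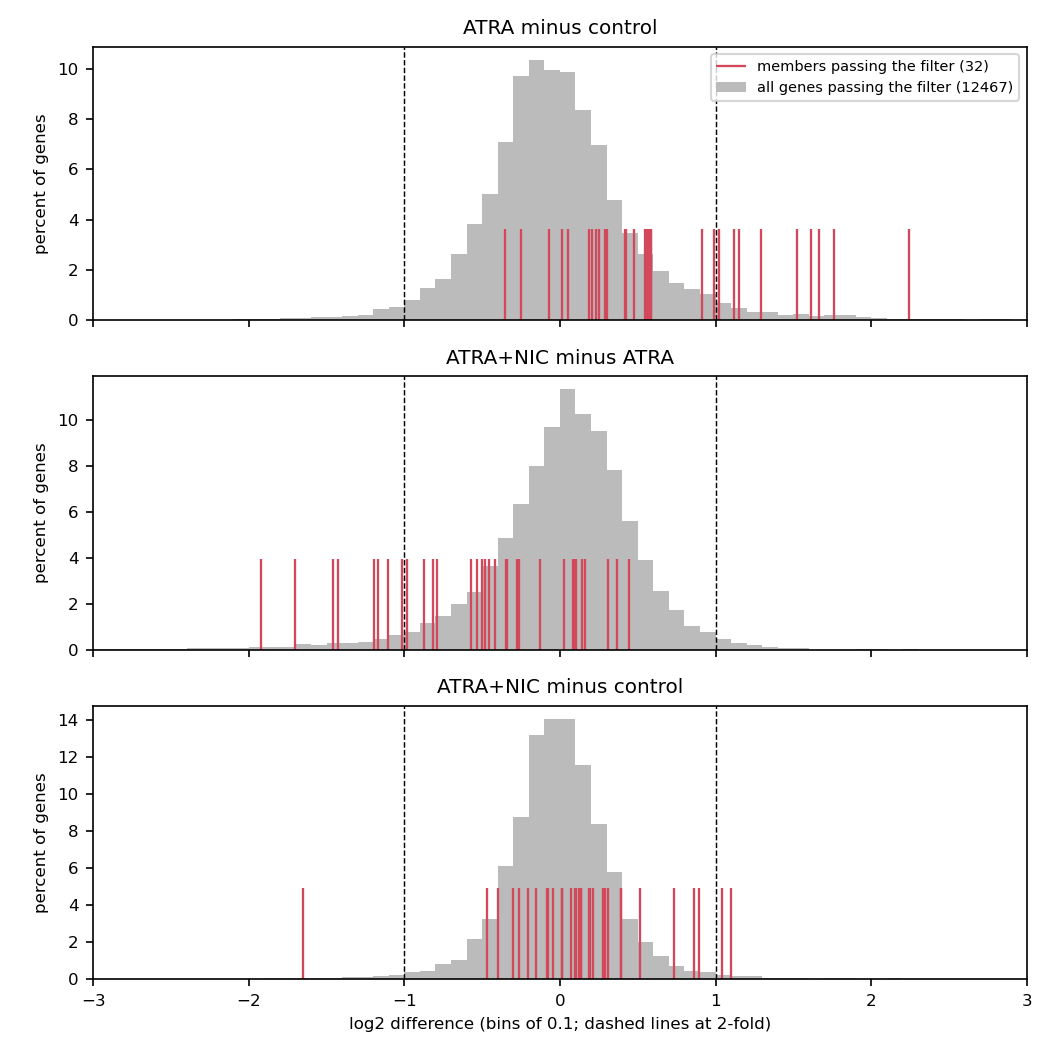
Distribution of log2 differences over the 12467 genes passing the filter (grey bars, percent of genes in bins of 0.1) with the 32 members passing it as red lines, 1 panel per comparison. Dashed lines mark 2-fold. Beyond them lie 9 members on the right in the top panel, 8 on the left in the middle panel, and 2 on the right and 1 on the left in the bottom panel.

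Agreement between transcripts of a member differed between the comparisons. All transcripts of a gene had the same sign in 18 of 23 members with more than 1 transcript for ATRA against control, in 20 of 23 for ATRA+NIC against ATRA and in 11 of 23 for ATRA+NIC against control. Transcripts of a gene share the RNA and the array, so this measures the probes and not the cultures. Agreement was not counted over other genes, so these counts do not show whether members differ from them. The 23 include NFKBIE, TNFRSF1B, CD40 and TLR2, which stayed below the filter. Differences were also smaller in the third comparison, with a median of 0.13 over the 32 members, against 0.56 and −0.47. Whether the lower count of 11 goes with these smaller differences was not tested. The ATRA array held the highest level of 23 of the 32 members and the control array the lowest of 20. Among all 12467 genes the ATRA array was highest for 33.4% and control lowest for 28.2%.

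The other genes of the pathway were taken from lists made from knowledge of the pathway, and members are not in them. These lists were also made with earlier results of these data known. Their counts therefore describe these arrays and are not independent support for the results on the members. The shares of all 12467 genes beside which these counts stand are again 3.83% at least 2-fold higher with ATRA and 3.74% at least 2-fold lower with ATRA+NIC than with ATRA. Of 31 classical NF-kappaB target genes 22 passed the filter, and 21 of these were higher with ATRA, 9 at least 2-fold, with 0 at least 2-fold lower (median 0.69). The chemokine gene CXCL8 was at 8.78 in control, 12.24 in ATRA and 9.18 in ATRA+NIC, GADD45B, a stress gene that restrains cell death, at 8.51, 11.23 and 8.03, and PTGS2, the inducible cyclooxygenase gene, at 6.74, 9.31 and 5.93. With ATRA+NIC against ATRA 12 of the 22 were at least 2-fold lower and 0 higher (median −1.14). PTGS2 and IL23A, which encodes a subunit of interleukin 23, passed the filter through the ATRA array alone, where they are high, and without them 7 of 20 were at least 2-fold higher with ATRA and 10 of 20 lower with ATRA+NIC. Against control, ATRA+NIC gave 1 at least 2-fold higher, beside 1.03% of all genes, and 2 lower, beside 0.971%. The higher gene was LCN2, which encodes a siderophore-binding protein of the epidermis. It was at 12.54 in control, 14.51 in ATRA and 14.23 in ATRA+NIC, so it was already high with ATRA alone. The lower ones were the interleukin 1 genes IL1A, at 10.05, 11.95 and 8.68, and IL1B, at 11.88, 12.97 and 10.83.

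TNF-family ligands and receptors outside the members showed single large differences. Among 5 ligands passing the filter all were higher with ATRA, and TNFSF9, the ligand of TNFRSF9, was at 8.89, 10.48 and 8.98, a 3.00-fold difference. TNFSF10, the gene of the death ligand TRAIL, was at 10.21, 11.02 and 11.57, 2.57-fold higher with ATRA+NIC than in control. Of 12 receptors, 10 were higher with ATRA and 3 at least 2-fold. These were NGFR (3.24-fold), the low-affinity neurotrophin receptor, TNFRSF10B (2.93-fold), a TRAIL receptor, and TNFRSF14 (2.25-fold), the receptor of LIGHT. TNFRSF10B was 3.28-fold lower with ATRA+NIC than with ATRA, at 10.53, 12.08 and 10.36 on the 3 arrays. TNFRSF14 was at 7.63, 8.80 and 8.98. TNFRSF10D passed the filter through the ATRA array alone. Without it 3 of 11 receptors were at least 2-fold higher with ATRA, with a median of 0.48, and of 0.51 with it.

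Adaptors and kinases of the pathway differed less as a list. Of 22 passing the filter, 12 were higher and 10 lower with ATRA (median 0.07), and 2 were at least 2-fold higher. They were BCL10 (2.77-fold), an adaptor of the CARD protein complexes, and MAP3K14 (2.14-fold), the kinase that starts the alternative pathway of NFKB2 and RELB. MAP3K14 was at 9.94, 11.04 and 10.40. MAP3K1 passed the filter through the ATRA array alone, and without it 2 of 21 were at least 2-fold higher (median 0.02). Of 14 negative regulators, 10 were higher and 4 lower (median 0.24), and 1 reached 2-fold, ZC3H12A (2.11-fold), which encodes an RNase that destroys cytokine mRNAs. The regulator genes RNF11 and PDLIM2 passed the filter through the ATRA array alone, and without them 1 of 12 reached 2-fold (median 0.20). In the list of Toll-like and interleukin 1 receptor signalling, 9 of 12 were higher (median 0.53) and 2 at least 2-fold, PELI2 (3.41-fold), a ubiquitin ligase gene, and the adaptor gene TICAM2 (2.58-fold). TICAM2 passed the filter through the ATRA array alone, at 7.15, 8.52 and 7.13, as did IRAK4 and NOD2, and without these 3 genes 1 of 9 was at least 2-fold higher with ATRA and 2 of 9 lower with ATRA+NIC. With ATRA+NIC against ATRA, TICAM2, TICAM1 and PELI2 were 2.62-fold, 2.13-fold and 2.05-fold lower, and 0 of the 12 were at least 2-fold higher.

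**Figure D4:**
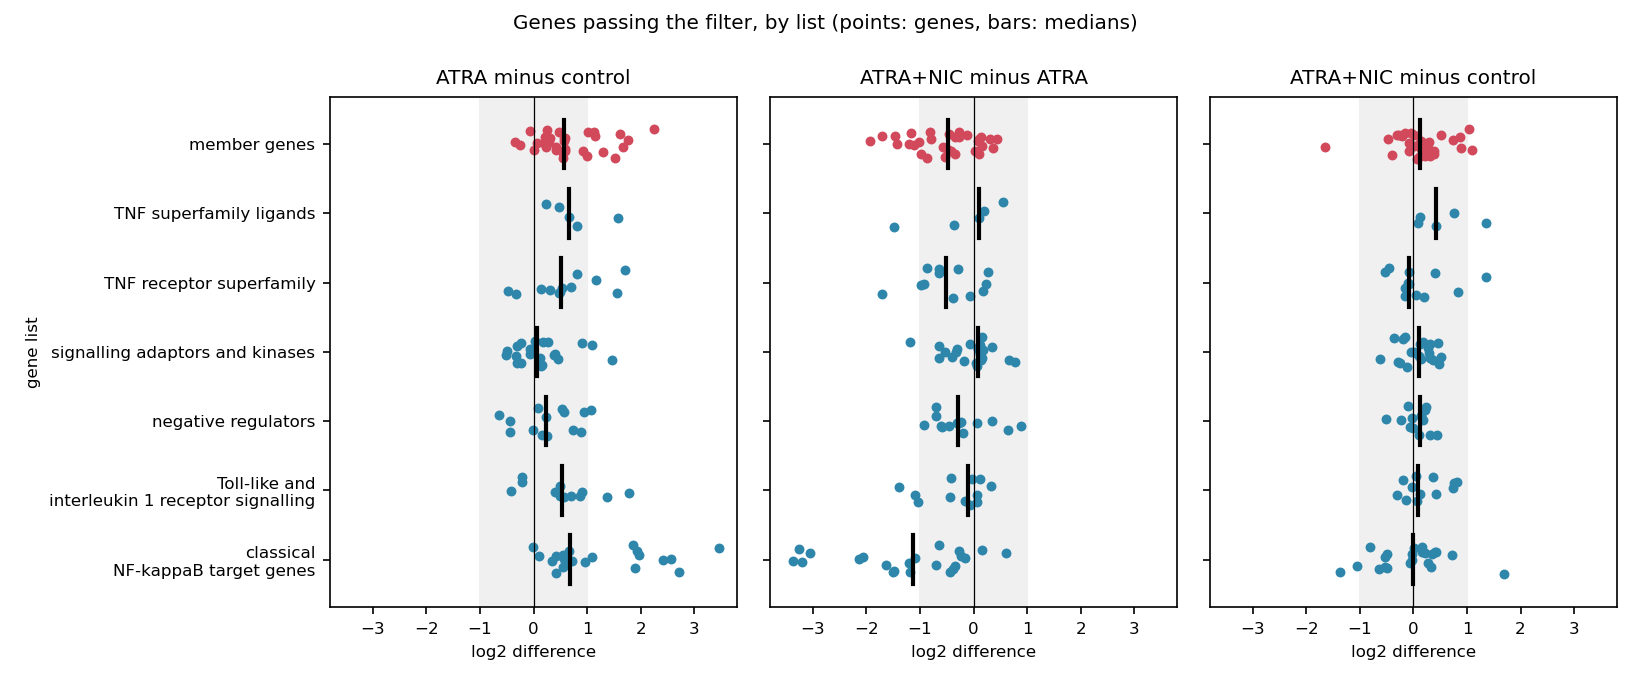
Log2 differences of single genes passing the filter (points, spread vertically at random) for the 32 members (red) and 6 lists of other pathway genes (blue), 1 panel per comparison, with list medians as black bars and the band under 2-fold in grey. The classical target list has medians of 0.69 and −1.14 in the first and second panels, and the adaptor and kinase list 0.07 and 0.08.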

How the data were processed

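Total RNA of 3 HaCaT cultures was measured on 1 Cy3-labelled NimbleGen array each. The authors deposited RMA intensities on a linear scale, per the file headers background-corrected, normalized and summarised per transcript, here over 3 probes (2 transcripts had fewer). No label or header used here names the software. Intensities were taken as deposited, and their log2 values averaged per gene. Of 45033 transcripts 2086 had no gene name and were left out, and 20230 of 23619 Entrez numbers matched a symbol of the RefSeq table for GRCh38.p14, used for names only. The deposited value table holds the same intensities for the 31275 transcripts reaching 50 on all arrays. Computation used Python 3.11.15, numpy 2.4.6 and pandas 2.3.3.

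A gene counted when it reached a level of 7.95 on at least 1 array, and a difference when it was at least 2-fold. Every measured member is reported, members at least 2-fold different with all levels, and of other lists at most the 3 genes with the greatest difference per comparison. The members and lists were chosen with earlier results of these data known. One gene was left out of the target list and is not analysed here. The size rule was tested on simulated data. Their scatter was assumed, so this does not show how the rule behaves under the real spread between cultures. Alternatives were the brightest or median transcript, an offset of 100, values under 50 set to 50, no filter or one at the 75th percentile, the value table, median-centred arrays and a threshold of 1.5-fold.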

Additional observations from a re-analysis of the deposited data

How the results depend on the processing

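The count of 9 members at least 2-fold higher with ATRA was 6 to 12 under the 9 alternatives: 6 with the filter at the 75th percentile, which LTB, CD83 and MAP3K8 did not pass, and 12 at 1.5-fold. The brightest transcript gave 10, without CD83 and with CYLD and RIPK2. The count of 8 members at least 2-fold lower with ATRA+NIC than with ATRA was 5 with an offset of 100, where CD83, LTB and TRAF1 dropped out, 4 with the filter at the 75th percentile and 12 at 1.5-fold. For ATRA+NIC against control, the 2 higher members became 1 with the brightest transcript, 0 with the offset of 100, 1 at the 75th percentile and 5 at 1.5-fold, and the 1 lower member, TNF, did not pass the 75th percentile, which left 0. The remaining 71 of 78 values of these counts and of the medians stayed within 1.5 times the main count or within the scatter between transcripts, and no median changed sign. Of 663 differences of single members under the alternatives, 35 moved by more than that scatter, mainly those of NFKBIE, CD40, CYLD and TLR2. MAP3K8 with its brightest transcript was at 1.14 against control with ATRA and at 0.79 with ATRA+NIC. An offset shrinks differences of dim genes by construction, and 1 array per group limits the precision throughout.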

Other observations

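A few NF-kappaB target and receptor genes that stayed under the filter on every array had their highest level with ATRA+NIC. The gelatinase gene MMP9 was at 4.45 in control, 4.92 in ATRA and 6.79 in ATRA+NIC, the cytokine gene IL6 at 4.67, 5.09 and 5.77, and LY96, which encodes the partner of the endotoxin receptor, at 4.17, 4.04 and 5.32. These genes were chosen after their values were seen, and such levels lie close to background. CDH5, the endothelial cadherin gene, was at 7.70, 11.31 and 11.67 on these arrays, while the other 6 endothelial markers stayed under the filter.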
